A study of Homo sapiens with 6 samples.

Results

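The genes described here are 10 inhibitory receptors of myeloid cells: the Siglecs CD33, SIGLEC7, SIGLEC9 and SIGLEC10, the leukocyte immunoglobulin-like receptors LILRB1, LILRB2, LILRB3 and LILRB4, the collagen receptor LAIR1, and the signal regulatory protein SIRPA. They were taken by name from a table of 78650 genes. RNA sequencing was done on THP-1 cells, a human monocytic leukaemia line, carrying either a stably transduced PTX4 overexpression construct (PTX4-OE, 3 libraries) or the empty vector (EV, 3 libraries), with no other treatment given. PTX4 encodes a member of the pentraxin family. The labels describe the 3 libraries of a group as biological replicates but do not say whether they came from separate transductions, nor what promoter drives the construct. Depth was 29670641 to 37718207 expected counts per library. The PTX4 transcript itself had 24633, 14398 and 15782 expected counts in the PTX4-OE libraries, against 0, 3 and 4 in the EV libraries, so the labels fit the targeted gene.

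Receptors of this kind carry a cytoplasmic immunoreceptor tyrosine-based inhibitory motif, or ITIM. When a neighbouring kinase of the Src family phosphorylates the motif, it recruits the phosphatases SHP-1 (PTPN6) and SHP-2 (PTPN11), which remove phosphate from activating signals. Siglecs bind sialic acid on glycans, LILRB1 and LILRB2 bind MHC class I molecules, LAIR1 binds collagen and SIRPA binds CD47. CD33 and LILRB4 are both known as surface antigens of myeloid leukaemias.

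The upstream sequences of 4 members are shown because they span the range of RNA levels described below: LAIR1 and CD33 were abundant, LILRB1 was intermediate and SIGLEC9 was barely detected. Each is written 5′ to 3′ on the gene's strand and lies within the 250 bases before a RefSeq transcription start on GRCh38.p14, and for CD33 bases in an annotated exon were left out. Capitals mark matches on either strand to GAGGAA, a core that the myeloid factor PU.1 binds, and to TGTGGT, a core that RUNX factors bind. The LAIR1 window is chr19:54370559-54370808 on the minus strand, the CD33 window is chr19:51224830-51225063 on the plus strand, the LILRB1 window is chr19:54616879-54617128 on the plus strand, and the SIGLEC9 window is chr19:51124656-51124905 on the plus strand.
LAIR1: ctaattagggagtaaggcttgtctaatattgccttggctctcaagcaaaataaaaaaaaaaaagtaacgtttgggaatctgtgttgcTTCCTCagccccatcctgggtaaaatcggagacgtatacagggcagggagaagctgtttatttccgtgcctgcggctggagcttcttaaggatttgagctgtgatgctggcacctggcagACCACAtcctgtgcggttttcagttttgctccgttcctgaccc
CD33: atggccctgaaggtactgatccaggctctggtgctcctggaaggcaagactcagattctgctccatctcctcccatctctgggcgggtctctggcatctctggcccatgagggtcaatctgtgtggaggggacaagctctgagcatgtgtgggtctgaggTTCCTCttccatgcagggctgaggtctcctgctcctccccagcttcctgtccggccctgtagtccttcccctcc
LILRB1: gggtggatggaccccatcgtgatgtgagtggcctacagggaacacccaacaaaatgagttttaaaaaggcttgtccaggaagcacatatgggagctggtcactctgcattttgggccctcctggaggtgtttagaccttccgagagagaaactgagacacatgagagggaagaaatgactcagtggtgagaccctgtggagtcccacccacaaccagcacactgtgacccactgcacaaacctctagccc
SIGLEC9: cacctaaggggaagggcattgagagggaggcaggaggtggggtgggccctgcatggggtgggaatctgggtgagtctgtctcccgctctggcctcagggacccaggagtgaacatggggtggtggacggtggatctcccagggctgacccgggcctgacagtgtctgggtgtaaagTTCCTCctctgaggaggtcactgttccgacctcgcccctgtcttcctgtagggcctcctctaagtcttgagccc

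RefSeq held an upstream sequence for 9 of the 10 members. Some have several starts, which gave 15 windows of 250 bases in all, some of them overlapping. Many of these windows include bases of annotated exons, with 183 such bases in a LAIR1 window. The overlapping SIGLEC9 windows hold the same GAGGAA match. GAGGAA occurred in 8 of these 15 windows, against 23.57% of all 35116 windows, and its windows belonged to 6 of the 9 genes, namely CD33, LAIR1, LILRB3, LILRB4, SIGLEC7 and SIGLEC9. TGTGGT occurred in 1 of the 15, at LAIR1, against 10.98% of all windows. TTGCNNAA, a core of C/EBP factors, occurred in 0 of the 15, against 9.05% of all windows. Windows with a GAGGAA match belonged both to abundant members such as LAIR1 and to barely detected ones such as SIGLEC9. A match is a run of letters and does not show that a factor binds there.

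The members spanned a wide range of levels, in deposited TPM, a unit that accounts for gene length and library size. LILRB4 was the highest, with 159 ± 20.7 TPM in PTX4-OE and 149.5 ± 32.2 TPM in EV (SD, n = 3 each), and it held 48.3% to 49.7% of the TPM summed over the 10 members. LAIR1 came next, at 91.8 ± 19.8 TPM in PTX4-OE and 84.6 ± 22.7 TPM in EV (SD, n = 3 each). CD33 had 39.9 ± 0.881 TPM in PTX4-OE and 37.4 ± 2.19 TPM in EV (SD, n = 3 each). These 3 receptors differ in ligand and family, and their ranges over the 6 libraries did not overlap. SIRPA followed with 24.4 ± 3.93 TPM in PTX4-OE and 23.9 ± 3.98 TPM in EV (SD, n = 3 each), and LILRB1 with 6.94 ± 0.719 TPM in PTX4-OE and 6.92 ± 0.825 TPM in EV (SD, n = 3 each). SIGLEC10 had 1.39 ± 0.456 TPM in PTX4-OE and 1.02 ± 0.261 TPM in EV (SD, n = 3 each), and LILRB2 had 0.31 ± 0.181 TPM in PTX4-OE and 0.393 ± 0.0833 TPM in EV (SD, n = 3 each). Each of these 7 stood above the next in all 6 libraries. SIGLEC9, LILRB3 and SIGLEC7 stayed under 0.2 TPM in every library, and their ranges overlapped each other, so they have no order. Summed over the 10 members, TPM came to 302.9, 292.2 and 376.2 in the PTX4-OE libraries, against 276.6, 260.5 and 374.8 in the EV libraries, and the groups overlapped.

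**Figure D1:**
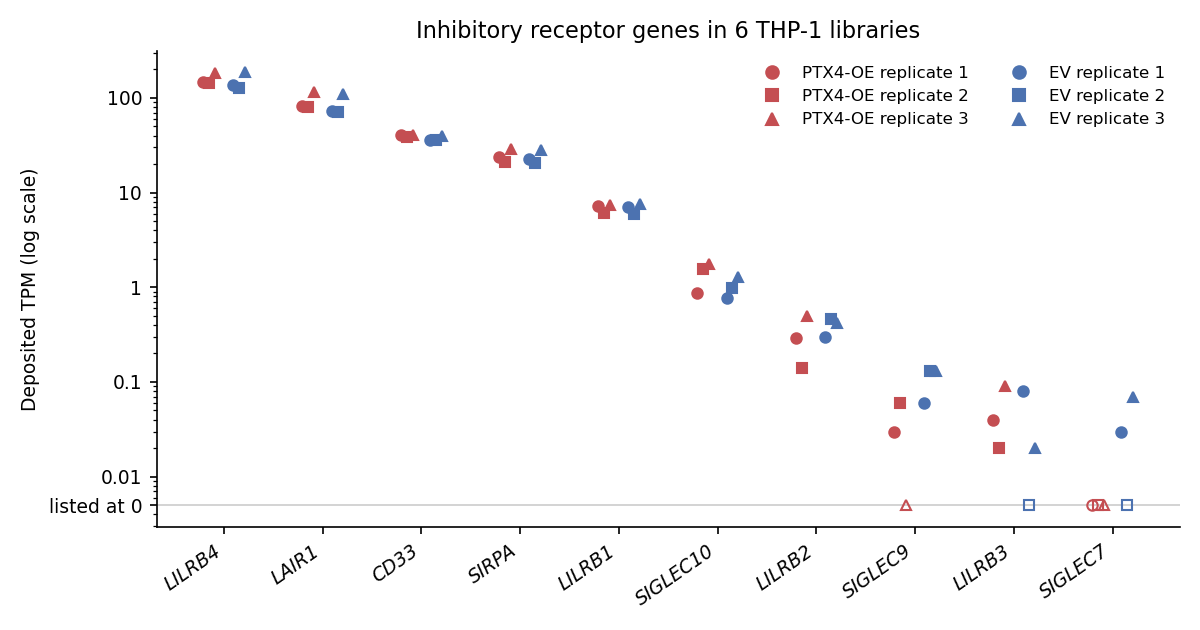
Deposited TPM of the 10 receptor genes on a logarithmic axis, one point per library, with PTX4-OE left of EV for each gene. LILRB4 and LAIR1 stand highest, the PTX4-OE and EV points of the 7 genes from LILRB4 to LILRB2 overlap, and SIGLEC9, LILRB3 and SIGLEC7 lie under 0.2 TPM.

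The question put to these genes was whether PTX4 overexpression went with a different level of the receptors. For this, expected counts were fitted over all genes with edgeR's quasi-likelihood test, and levels are given as CPM, counts scaled by the normalised library size. Low counts removed SIGLEC7, SIGLEC9 and LILRB3, leaving 7 of 10 members among 17625 genes tested. None of the 7 had an adjusted p under 0.05 (0 higher, 0 lower), where 1 gene, PTX4 itself, passed over the whole table, or 0.00567% of genes. None had an unadjusted p under 0.05 either, where 0.743% of all genes did. Libraries with the same replicate number deviated together from their group means, though only weakly for number 2, so the numbers were also fitted as a block. Then 47 genes passed over the whole table, or 0.267%, of which 5 were higher (0.0284%) and 42 lower (0.238%) in PTX4-OE. Still 0 of the 7 members passed with the block, and 0 had an unadjusted p under 0.05, against 8.79% of all genes. DESeq2 and limma also gave 0 calls among them, although DESeq2 with the block gave no adjusted p for LILRB2. In CPM the 2 groups overlapped for all 7 members, where 2.07% of all genes lay wholly higher and 2.04% wholly lower in PTX4-OE. The median log2 fold change was 0.04 over the members and 0.01 over all genes, positive meaning higher in PTX4-OE. The share of counts from mitochondrially encoded genes, a sign of RNA quality, was 2.79%, 5.39% and 4.97% in PTX4-OE against 4.75%, 5.91% and 5.51% in EV. Leaving those genes out changed no member's call.

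**Figure D2:**
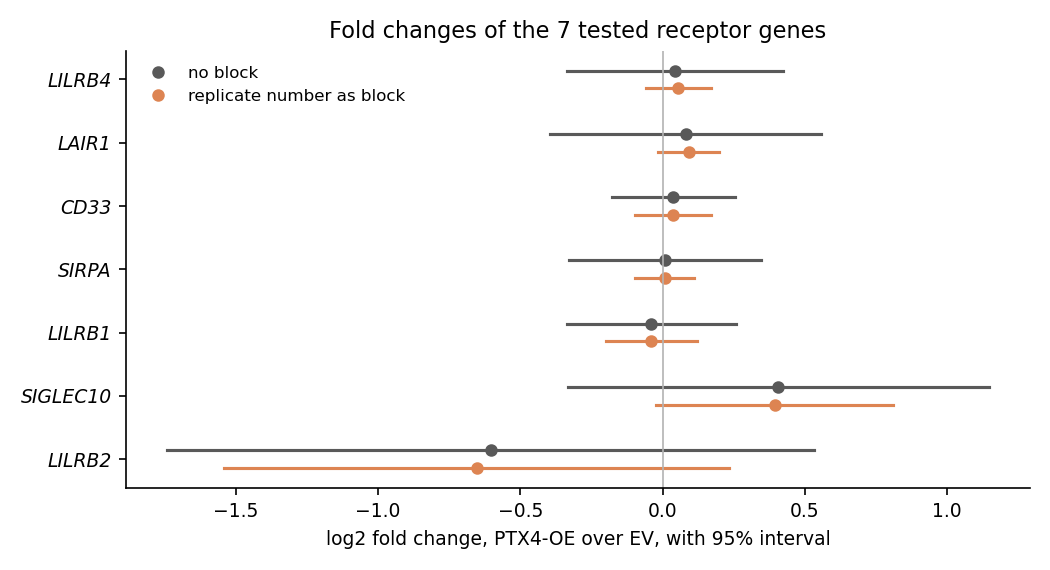
Log2 fold changes of the 7 tested receptors, PTX4-OE over EV, with 95% intervals from edgeR, in grey without and in orange with the replicate number as a block. Every interval crosses 0, and those of SIGLEC10 and LILRB2 are the widest.

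Among the Siglecs, CD33 (ENSG00000105383, chromosome 19, 51225064 to 51243860 on GRCh38, plus strand) is a sialic acid receptor and the target of antibody therapies for acute myeloid leukaemia. It had 34.3, 33.4 and 31.5 CPM in the PTX4-OE libraries, against 31.4, 31.8 and 33.5 CPM in the EV libraries. These values interleave, and the log2 fold change was 0.04 (SE 0.092, edgeR adjusted p = 0.9999) with a 95% interval of -0.18 to 0.25. SIGLEC10 (ENSG00000142512, chromosome 19, 51410020 to 51417803, minus strand), a receptor for CD24, was far lower. It had 1.73, 2.95 and 3.17 CPM in the PTX4-OE libraries, against 1.48, 2.02 and 2.43 CPM in the EV libraries. SIGLEC10 was the 1 tested member that was higher in PTX4-OE in each same-numbered pair, a pattern that 16.4% of all genes showed. No tested member was lower in every pair, against 14.2% of all genes. The pair differences were 0.23, 0.54 and 0.38 on the log2 scale. Its fold change did not pass the test without the block, at 0.41 (SE 0.31, edgeR adjusted p = 0.9999), nor with it, at 0.39 (SE 0.20, edgeR adjusted p = 0.598), and the blocked 95% interval was -0.02 to 0.81. The unblocked value was 0.23 without EV replicate 1, 0.24 without PTX4-OE replicate 3 and 0.64 without PTX4-OE replicate 1. The noncoding genes SIGLEC10-AS1 and SIGLEC10-AS2 lie on the opposite strand of SIGLEC10, and no source used here gives the strand setting of the counting. SIGLEC10-AS1 had 56.7, 76.2 and 58.2 expected counts in PTX4-OE and 75.2, 61.6 and 62.6 in EV, while SIGLEC10 had 62.3, 91.8 and 123.8 in PTX4-OE and 46.8, 59.4 and 82.4 in EV. In each library the fractions of both counts complete each other to a whole number, so reads were divided between these overlapping genes. Such reads cannot be told apart with certainty. The pair pattern of SIGLEC10 depends on that division. SIGLEC10-AS1 counts were lower in PTX4-OE for numbers 1 and 3 and higher for number 2.

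Of the LILRB genes, LILRB4 (ENSG00000186818, chromosome 19, 54643889 to 54670359, plus strand) encodes a receptor for apolipoprotein E and fibronectin that is restricted largely to monocytic cells. It had 193.7, 192.3 and 231.6 CPM in the PTX4-OE libraries, against 182.0, 171.5 and 245.6 CPM in the EV libraries. Replicate 3 was the highest library in each group, and its EV value exceeded all PTX4-OE values. The log2 fold change was 0.04 (SE 0.16, edgeR adjusted p = 0.9999), with a 95% interval of -0.34 to 0.42 without the block and of -0.06 to 0.17 with it. LILRB1 (ENSG00000104972, chromosome 19, 54617158 to 54638022, plus strand), which binds a broad range of MHC class I molecules, had 16.3, 13.8 and 15.5 CPM in the PTX4-OE libraries, against 16.3, 13.9 and 16.6 CPM in the EV libraries. The same-numbered libraries of LILRB1 lay close together, and its log2 fold change was -0.04 (SE 0.13, edgeR adjusted p = 0.9999), with a 95% interval of -0.34 to 0.26. LILRB2 (ENSG00000131042, chromosome 19, 54273812 to 54281184, minus strand), which also binds MHC class I, had 0.445, 0.225 and 0.794 CPM in the PTX4-OE libraries, against 0.601, 0.920 and 0.738 CPM in the EV libraries. These rest on 16, 7 and 31 expected counts in PTX4-OE and 19, 27 and 25 in EV. The log2 fold change of -0.60 (SE 0.48, edgeR adjusted p = 0.9999) came with an interval of -1.74 to 0.53, which includes a 2-fold lower level. Single libraries moved this value, to -1.16 without PTX4-OE replicate 3 and to -0.28 without PTX4-OE replicate 2. Under the block it was -0.65, with -1.17 without number 3 and -0.14 without number 2.

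LAIR1 (ENSG00000167613, chromosome 19, 54351384 to 54370558, minus strand) is the inhibitory receptor for collagens. It had 137.1, 137.4 and 185.3 CPM in the PTX4-OE libraries, against 127.0, 121.9 and 185.8 CPM in the EV libraries. Here too replicate 3 stood above the other libraries of its group, and the groups overlapped. The log2 fold change was 0.08 (SE 0.20, edgeR adjusted p = 0.9999) without the block and 0.09 (SE 0.050, edgeR adjusted p = 0.641) with it. SIRPA (ENSG00000198053, chromosome 20, 1894167 to 1940592, plus strand), whose binding of CD47 restrains phagocytosis, is the 1 member outside chromosome 19. It had 72.04, 63.5 and 82.2 CPM in the PTX4-OE libraries, against 70.3, 63.4 and 82.9 CPM in the EV libraries. The same-numbered libraries differed little, and the log2 fold change was 0.01 (SE 0.14, edgeR adjusted p = 0.9999) without the block and 0.01 (SE 0.049, edgeR adjusted p = 0.979) with it.

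The intervals give the size of change that these libraries could still hold. For the 5 members at 5 TPM or more in every library (LILRB4, LAIR1, CD33, SIRPA and LILRB1), all limits lay between 0.761-fold and 1.47-fold without the block and between 0.872-fold and 1.15-fold with it. Intervals lay wholly within a 2-fold change in either direction for 5 of 7 members without the block, against 75.48% of all genes, and for 6 of 7 with it, against 86.16%. These limits describe RNA in the whole culture, where fewer cells with a transcript and less of it per cell cannot be told apart.

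The 3 members below the filter are receptors of mature blood monocytes, and SIGLEC7 is also one of natural killer cells. SIGLEC9 had 1, 2 and 0 expected counts in the PTX4-OE libraries, against 2, 5 and 5.65 in the EV libraries. LILRB3 had 3, 1 and 5.25 expected counts in the PTX4-OE libraries, against 5, 0 and 1 in the EV libraries. SIGLEC7 had 0 in each PTX4-OE library, against 1, 0 and 2 in the EV libraries. All of these lie near the floor of 3 counts per library, and no fold change is given. LILRB3 overlaps the ribosomal protein gene RPS9 on the opposite strand, which had 20030 to 27150 expected counts per library.

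Some members also varied with the replicate number, as many genes of the whole table did. In a comparison chosen after the values were seen, number 3 was tested against number 1 over both groups, with the construct kept in the edgeR fit. The labels put all libraries in 1 batch and do not say what a number shares. Of the 7 tested members 4 were higher in number 3 and 0 lower, where 25.8% of all genes were higher, 28.8% lower and 54.6% either. LAIR1 differed by 0.49 on the log2 scale (SE 0.061, edgeR adjusted p = 6.09e-06), LILRB4 by 0.35 (SE 0.066, edgeR adjusted p = 0.000362), SIRPA by 0.21 (SE 0.059, edgeR adjusted p = 0.00622) and SIGLEC10 by 0.80 (SE 0.24, edgeR adjusted p = 0.0111). The SIGLEC10 value again depends on how reads were divided with SIGLEC10-AS1. That gene had 56.7 and 58.2 expected counts in PTX4-OE numbers 1 and 3, against 75.2 and 62.6 in EV. CD33, LILRB1 and LILRB2 did not pass, with -0.02 (edgeR adjusted p = 0.867), -0.03 (edgeR adjusted p = 0.821) and 0.59 (edgeR adjusted p = 0.333). LAIR1, LILRB4 and SIRPA were also higher in number 3 than in number 2, by 0.52, 0.39 and 0.38, where 14.2% of all genes were higher, 18.6% lower and 32.8% either. Between numbers 2 and 1 0 members passed (edgeR), where 8.4% of all genes were higher, 12.9% lower and 21.3% either. Over all genes, number 3 was the highest library in both groups for 32.4%.

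**Figure D3:**
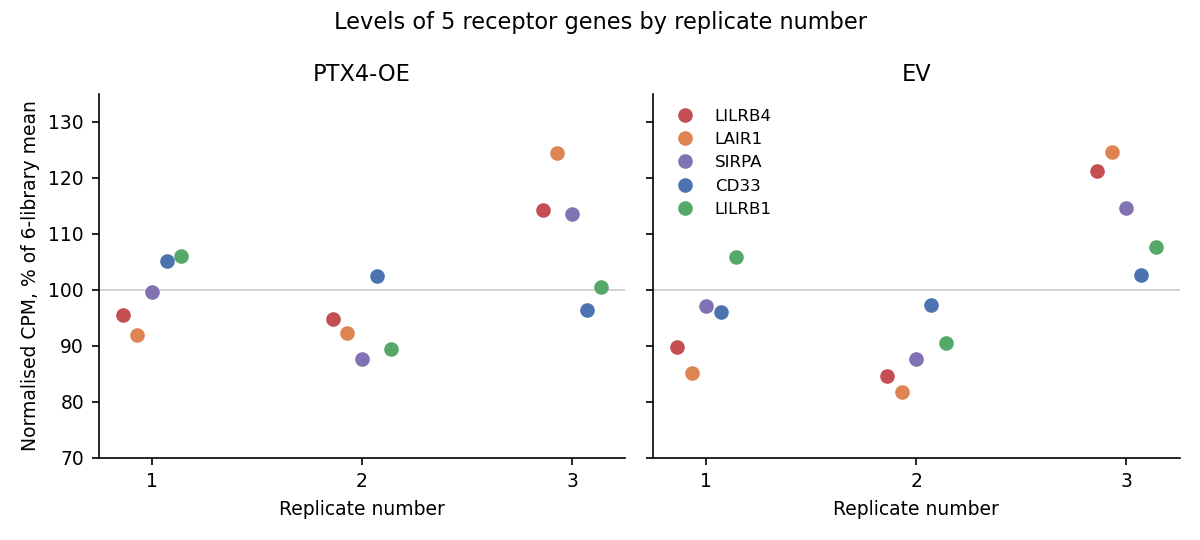
Normalised CPM of the 5 receptors at 5 TPM or more, as a percent of the mean over the 6 libraries, by replicate number in PTX4-OE (left) and EV (right). LAIR1, LILRB4 and SIRPA are highest in number 3 in both groups, as were 32.4% of all genes. CD33 and LILRB1 show no such shift.

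In the genome 9 of the 10 members lie in a pair of clusters on chromosome 19, and within each cluster the levels of neighbours differed widely. In the leukocyte receptor cluster, 12 LILR and LAIR genes from LILRB3 to LILRB4 were listed and 6 were tested. LILRB4 and its neighbour LILRB1 are separated by 5866 bases, yet averaged 154.3 and 6.93 TPM over the 6 libraries. LILRA2, an activating relative that lacks the inhibitory motif, averaged 24.4 TPM in PTX4-OE and 26.3 TPM in EV, and LILRA1 averaged 2.17 TPM in PTX4-OE and 2.42 TPM in EV. LILRB5, LILRA4, LILRA5, LILRA6 and LAIR2 averaged under 0.2 TPM. In the Siglec cluster, 9 genes from SIGLEC9 to SIGLEC14 were listed and 4 were tested. CD33 was the most abundant of them, SIGLEC6 averaged 0.843 TPM in PTX4-OE and 0.803 TPM in EV, and SIGLEC8 was at 0 in all 6 libraries. Genes of these clusters are similar in sequence, so reads can be shared between them. Of the 7 tested members 5 had whole-number counts in every library. The exceptions were SIRPA, which lies outside these clusters, and SIGLEC10, whose fractions were completed by those of SIGLEC10-AS1. Below the filter, LILRB3 and its neighbour LILRA6 had 5.25 and 4.75 expected counts in PTX4-OE replicate 3.

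**Figure D4:**
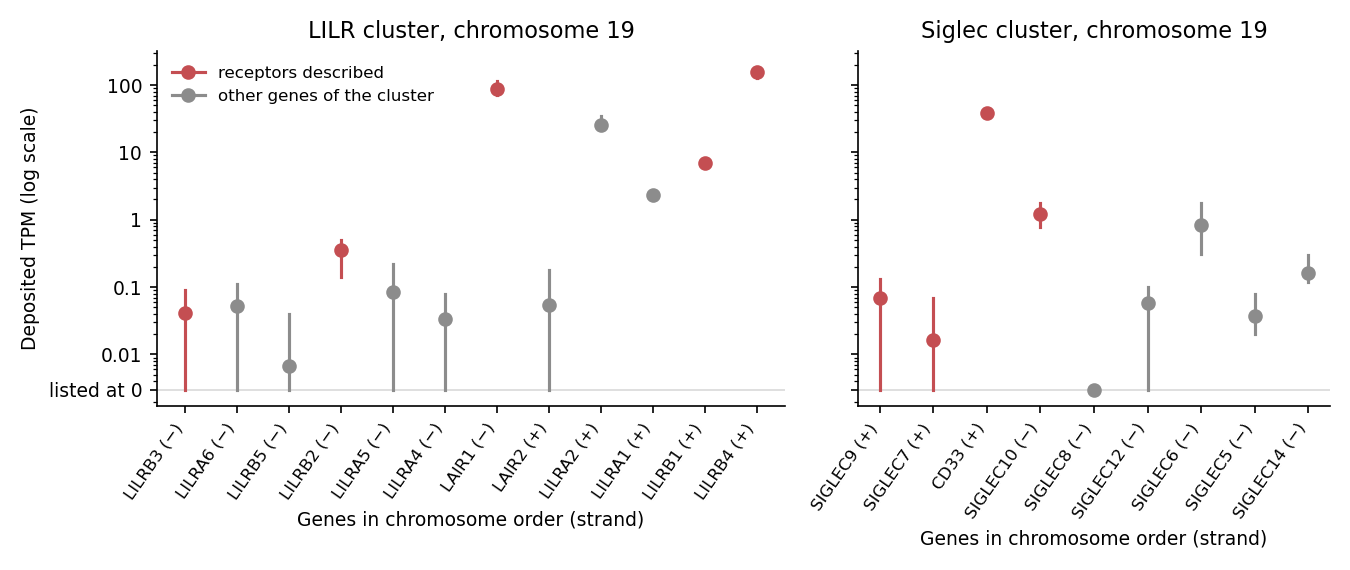
Mean TPM over the 6 libraries on a logarithmic axis for the genes of the leukocyte receptor cluster and the Siglec cluster, in chromosome order, with lines from the lowest to the highest library. Members are red and other genes grey, and LILRB4, LAIR1 and CD33 stand far above most of their neighbours.

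Genes that work beside these receptors were examined as lists, chosen by function. In the list of activating relatives and their adaptors, most of which signal through adaptors that carry an immunoreceptor tyrosine-based activation motif, 13 of 21 genes were tested and 0 passed in either direction, with or without the block (edgeR). At an unadjusted p under 0.05 there were 2 without the block, against 0.743% of all genes, and 3 with it, against 8.79% of all genes. The blocked median log2 fold change was -0.20, beside 0.01 over all genes, and 11 of 13 values were negative, against 48.1% of all genes. FCER1G, the common gamma chain that signals for Fc receptors and LILRA proteins, averaged 2.94 ± 0.369 TPM in PTX4-OE and 5.07 ± 0.906 TPM in EV (SD, n = 3 each), with a blocked log2 fold change of -0.78 (SE 0.31, edgeR adjusted p = 0.475). HCST, the adaptor DAP10, which carries no such motif, had a blocked log2 fold change of -0.51 (SE 0.43, edgeR adjusted p = 0.798). FCER1G had 19 to 46 expected counts per library and HCST had 7 to 16. PILRB, the activating partner of PILRA, had a blocked log2 fold change of -0.18, and TREM2, a lipid receptor that signals through TYROBP, had -0.06. The smallest blocked adjusted p of the list was that of SIRPB1, a relative of SIRPA, with a log2 fold change of -0.25 (SE 0.059, edgeR adjusted p = 0.117). In CPM the groups did not overlap for FCER1G, LILRA1 and SIRPB1, each lower in PTX4-OE, where 2.04% of all genes lay wholly lower. They overlapped for the other tested genes of the list. TYROBP, FCER1G and HCST summed to 14.0, 10.5 and 15.8 TPM in PTX4-OE. In EV they summed to 14.9, 19.2 and 18.5 TPM, and the groups overlapped for this sum.

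Of 22 other inhibitory receptors 10 were tested and 0 passed in either fit (edgeR). At an unadjusted p under 0.05 there were 0 without the block and 2 with it, against 0.743% and 8.79% of all genes. The blocked median of the 10 receptors was -0.11, with 7 of 10 values negative, against 48.1% of all genes. PECAM1, an adhesion molecule with ITIMs of its own, had 24.2 ± 2.09 TPM in PTX4-OE and 27.9 ± 2.57 TPM in EV (SD, n = 3 each), with a blocked log2 fold change of -0.25 (SE 0.054, edgeR adjusted p = 0.0890). It was lower in PTX4-OE in each of the 3 pairs. Without number 3, PECAM1 was -0.33 and passed (edgeR adjusted p = 6.49e-05). It did not pass without number 1, at -0.21 (edgeR adjusted p = 0.1285), or without number 2, at -0.20 (edgeR adjusted p = 0.491). DESeq2 with the block called PECAM1 lower as well (adjusted p = 0.0478). CLEC12A, an inhibitory C-type lectin, had a blocked log2 fold change of -0.51 (SE 0.42, edgeR adjusted p = 0.792), on 8 to 18 expected counts per library. PILRA, which binds sialylated glycoproteins, had -0.45 (SE 0.38, edgeR adjusted p = 0.799), on 10 to 30 expected counts per library. MILR1, an ITIM receptor known from mast cells, had -0.01. Under the block CLEC12A was -0.80 without number 1, and PILRA was -0.25 without number 1 and -0.79 without number 3.

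None of the tested genes downstream of the motif passed either. Of 18 kinases, phosphatases and adaptors, 16 were tested and 0 passed in either fit (edgeR). At an unadjusted p under 0.05 there were 0 without the block and 1 with it, against 0.743% and 8.79% of all genes. The blocked median was 0.01. The phosphatases PTPN6 and PTPN11 had 82.6 ± 8.49 and 63.8 ± 10.8 TPM in PTX4-OE, against 77.0 ± 12.5 and 57.7 ± 8.17 TPM in EV (SD, n = 3 each). INPP5D, the lipid phosphatase SHIP-1, averaged 114.2 TPM in PTX4-OE and 107.9 TPM in EV, with a blocked log2 fold change of 0.04. SOCS3, a feedback inhibitor of cytokine receptors, had a blocked log2 fold change of -0.63 (SE 0.22, edgeR adjusted p = 0.385). It had 66, 103 and 118 expected counts in PTX4-OE, against 73, 96 and 265 in EV, so EV replicate 3 stood apart. Without number 3 the blocked value was -0.16, and without EV replicate 3 the unblocked value was -0.04, against -0.72 with all libraries. The kinase gene SRC had 0.11 and the adaptor gene GRB2 had -0.02.

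THP-1 cells also expressed protein ligands of the receptors. Of 19 such genes 9 were tested and 0 passed in either fit (edgeR). At an unadjusted p under 0.05 there were 0 without the block and 3 with it, against 0.743% and 8.79% of all genes. The blocked median was -0.08. HLA-B, a ligand of LILRB1 and LILRB2, averaged 468.5 ± 39.9 TPM in PTX4-OE and 525.3 ± 34.1 TPM in EV (SD, n = 3 each), with a blocked log2 fold change of -0.20 (SE 0.051, edgeR adjusted p = 0.163), and DESeq2 with the block called it lower (adjusted p = 0.00604). B2M, the light chain of MHC class I, had -0.08. CD47, the ligand of SIRPA, had 15.5 ± 1.56 TPM in PTX4-OE and 14.9 ± 0.612 TPM in EV (SD, n = 3 each), with a blocked log2 fold change of 0.02. Of 27 genes that make, transfer or remove the sialic acid bound by Siglecs, 22 were tested and 0 passed in either fit (edgeR). At an unadjusted p under 0.05 there were 1 without the block and 3 with it, against the same shares of all genes. The blocked median was -0.02. The sialyltransferases ST6GALNAC2 and ST3GAL6 had blocked log2 fold changes of -0.49 and -0.40 (edgeR adjusted p of ST3GAL6 = 0.204). ST3GAL6 passed without number 1, at -0.54 (edgeR adjusted p = 0.0341). It did not pass without number 2, at -0.31 (edgeR adjusted p = 0.6875), or without number 3, at -0.36 (edgeR adjusted p = 0.327). The sialyltransferase ST3GAL4 had -0.05, and NANS, the sialic acid synthase, had -0.01.

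The libraries carried the monocytic genes expected of THP-1 cells in part. SPI1, which encodes PU.1, averaged 270.2 TPM in PTX4-OE and 276.0 TPM in EV, and CD68 averaged 129.6 TPM in PTX4-OE and 127.2 TPM in EV. CD14, the defining marker of classical monocytes, averaged 1.43 TPM in PTX4-OE and 1.38 TPM in EV, and FCN1 was at 0 throughout. Of 10 monocyte markers tested 2 fell with the block, where 0.238% of all genes did, and 0 passed without it. These were CSF1R, by 0.30, and MPO, by 0.54 on the log2 scale (edgeR adjusted p = 0.0385 and 0.00798). In both fits 9 of the 10 markers had a negative log2 fold change. Among all genes this held for 48.1% with the block and 47.01% without it. All 5 T cell markers were at 0 in every library. Natural killer markers summed to 61.9 to 76.5 TPM in PTX4-OE and 65.6 to 72.3 TPM in EV, nearly all from NCAM1 and NKG7, and B cell markers to 4.58 to 5.2 TPM in PTX4-OE and 3.21 to 4.68 TPM in EV. The part of other cells in the receptor levels was not tested.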

How the data were processed

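RNA from 6 THP-1 libraries was measured by paired-end sequencing after oligo(dT) enrichment, per the labels' protocols. Reads were handled with FastQC 0.11.5, STAR and featureCounts on GRCh38, per the submitters' processing notes. For STAR and featureCounts the versions, strand setting and annotation release were not given in the sources used here. Values were of 2 kinds: expected counts, deposited by the authors without normalization and not whole in 7.92% of table entries, and deposited TPM, in which the authors accounted for gene length and brought each library to 1000000. Of 78686 identifiers 61463 had a symbol, and 36 pairs listed on both X and Y were summed. Coordinates came from GENCODE 44.

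After rounding, edgeR 4.0.16 (R 4.3.3) was run on the expected counts (filterByExpr, TMM, quasi-likelihood F test, Benjamini-Hochberg adjustment over all 17625 genes tested, threshold 0.05). The fit had no block. Correlations of same-numbered libraries' deviations from group means were 0.632, 0.130 and 0.699, all over the limit of 0.1, so a block was also fitted. Unlike numbers gave -0.643 to 0.117, so the highest of them passed that limit too. The limit therefore does not establish the pairing, whose correlation is weak for number 2 and which the labels do not state. Blocked values rest on it. Alternatives were DESeq2 1.42.0, limma 3.58.1 (voom, and log2 of the deposited TPM plus 1 or 0.1), other scaling or filtering, and leaving out libraries. Standard errors came from the fold change and F statistic. The edgeR code was also run on simulated counts with known fold changes and no replicate-number effect. That run checks the code only and lends no weight to the results here. Tables and plots used Python 3.11.15, pandas 2.3.3 and matplotlib 3.10.9.

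The members and lists were chosen with earlier results of these data known. Named genes were all members, PTX4 and, per list, genes passing the test, the 2 largest blocked fold changes and the 2 highest mean TPM; other genes were named after their values were seen, and 1 gene that the rule picks is not reported here. No 2 libraries agreed within sampling noise (smallest chi-square per degree of freedom 6.54). Where replicates are not separate cultures, p-values measure only the spread between these samples, which may be technical. Counting floors cover counting error only.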

Additional observations from a re-analysis of the deposited data

How the results depend on the processing

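The count of members called stayed at 0 under every alternative run. The count over all genes, 1 in the fit reported, was 47 with the replicate block, 47 with the block and RLE size factors, 46 with the block and mitochondrial genes left out, 296 with the block and no filter, 38 in DESeq2 with the block, 3 in DESeq2, 2 with no filter, 0 in limma-voom and 3 on log2(TPM + 0.1). Under the block, leaving out a same-numbered pair gave 88 without number 1, 23 without number 2 and 208 without number 3, and without any 1 library and no block it was 1. Genes called in the 5 functional lists numbered 2 in DESeq2 with the block, 5 with the block and no filter, and 0 to 2 without a pair. The block changed no member's call. The block joined with another scaling, filter or gene set, and all settings for the replicate numbers, were chosen after seeing the data.

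The members' median log2 fold change was -0.0616 to 0.118 without 1 library. Without PTX4-OE replicate 3 LAIR1 was -0.0864, and without EV replicate 3 it was 0.301. Without 1 library the ranges were -0.115 to 0.0171 for LILRB1, -0.0573 to 0.220 for LILRB4, -0.0864 to 0.301 for LAIR1, -0.101 to 0.118 for SIRPA, -1.16 to -0.284 for LILRB2, 0.234 to 0.642 for SIGLEC10, -0.972 to -0.117 for PILRA, -0.829 to -0.324 for CLEC12A, -0.821 to -0.350 for HCST and -1.04 to -0.0359 for SOCS3. They were -0.241 to 0.0334 for B2M, -0.0772 to 0.00737 for GRB2, -0.0644 to 0.102 for MILR1, -0.109 to 0.101 for NANS, -0.280 to 0.0200 for PILRB, -0.141 to 0.422 for SRC, -0.191 to 0.107 for ST3GAL4, -1.10 to 0.0490 for ST6GALNAC2 and -0.451 to 0.287 for TREM2. Without a pair, under the block, they were -0.00885 to 0.0901 for CD33, -0.00349 to 0.0126 for SIRPA, -0.00154 to 0.0731 for INPP5D, -0.0368 to 0.0463 for MILR1 and -0.268 to 0.0702 for TREM2, with -0.0115 without number 2.

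On log2(TPM + 1) and log2(TPM + 0.1) the sign turned for LILRB1 (0.0043 and 0.0051), GRB2 (0.0077 and 0.0078), NANS (0.015 and 0.015), ST3GAL4 (0.0082 and 0.0085), MILR1 (0.059 and 0.060) and TREM2 (-0.059 and -0.063). MILR1 was 0.0055 with no filter and 0.00049 with no filter and the block. TREM2 was -0.059 with the block, -0.059 with RLE added, -0.053 with no filter added, -0.062 with mitochondrial genes left out as well, -0.0051 with those left out alone, -0.077 in DESeq2 with the block and -0.092 in limma-voom. For replicate number 3 against 1, leaving out mitochondrial genes turned CD33 to 0.014 and LILRB1 to 0.0044, neither of which passed. The cause was not tested. SIGLEC7, SIGLEC9 and LILRB3 had at most 5.65 expected counts in any library, so no change in them could be measured.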
